A study of Homo sapiens with 12 samples.

Results

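The T-cell receptor constant genes and the CD3 genes are 10 of the 36601 genes in the deposited count table. They were taken by matching Ensembl gene identifiers to the symbols TRDC, TRGC1, TRGC2, TRAC, TRBC1, TRBC2, CD3D, CD3E, CD3G and CD247, and each of the 10 matched 1 row. The rule for choosing them uses symbols and no measured value, although it was set with earlier results of these data known. RNA was sequenced in bulk from wild-type cells of H9, a widely used line of human embryonic stem cells, as they were differentiated in culture towards γδ T cells. There were 12 libraries, all given the same batch by the labels. The 3 libraries of day 10 are labelled haematopoietic progenitor cells, the 3 of day 15 and the 3 of day 20 T progenitor cells, and the 3 of day 25 mature γδ T cells. All groups share the same start. The stem cells were kept on mouse embryonic fibroblast feeders and were then given CHIR99021, BMP4, Activin A and a Rock inhibitor, followed by VEGF and bFGF. From day 6 the medium also held Flt3L, IL-7, SCF and SB431542. From day 10 it was a serum medium with DLL4, a ligand of Notch, together with Flt3L, SCF and IL-7, so days 15, 20 and 25 differ in time under that medium, and no culture without it is among the 12 libraries. The labels describe no sorting of cells, and nothing in them ties replicates to separate cultures. P-values therefore measure only how far these libraries differ, and that spread may be technical.

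A T cell recognises its target through a receptor made of a pair of chains, γ with δ or α with β. Each chain joins a variable part, cut and pasted from V, D and J segments by the RAG enzymes, to a constant part encoded by TRGC1 or TRGC2 (γ), TRDC (δ), TRAC (α), or TRBC1 or TRBC2 (β). The receptor chains themselves cannot signal. They reach the cell surface only with the CD3γ, CD3δ and CD3ε chains (CD3G, CD3D, CD3E) and the ζ chain (CD247), whose cytoplasmic ITAM motifs are phosphorylated when the receptor is engaged. Constant genes can also be transcribed before rearrangement is complete, giving so-called sterile or germline transcripts, so RNA from a constant gene alone does not mark an assembled receptor.

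Between 27026196 and 39811230 counts were assigned to genes per library, with 22453 to 24771 genes detected. Levels are CPM, counts relative to the library total after scaling by edgeR's TMM factors, given as mean ± SD (n = 3 libraries a day). In 1 library 3 counts, taken as the floor of detection, came to 0.0723 to 0.145 CPM, and over the 3 libraries of a day to 0.0287 to 0.0433 CPM. Counts of 2 were more frequent than counts of 1 in each library, and 59.2% to 61.4% of genes with counts from 1 to 10 had an even count. Single counts may therefore not stand for separate fragments, and floors and intervals cover counting error only. In these bulk libraries, fewer cells of a type and less RNA per cell cannot be told apart.

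In CPM not corrected for length, the γ constant genes were the most abundant members on each of the 4 days. TRGC1 and TRGC2 rose from day 10 to day 15, rose again to day 20 and fell by day 25. The δ constant gene TRDC and the ζ chain gene CD247 were highest at day 15 and fell by day 20. CD3E was first counted at day 20. The genes for CD3δ and CD3γ never had more than 17 counts in a library and had 0 at day 25, the day labelled mature γδ T cells. The α and β constant genes stayed below 1 CPM in each of the 12 libraries.

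**Figure D1:**
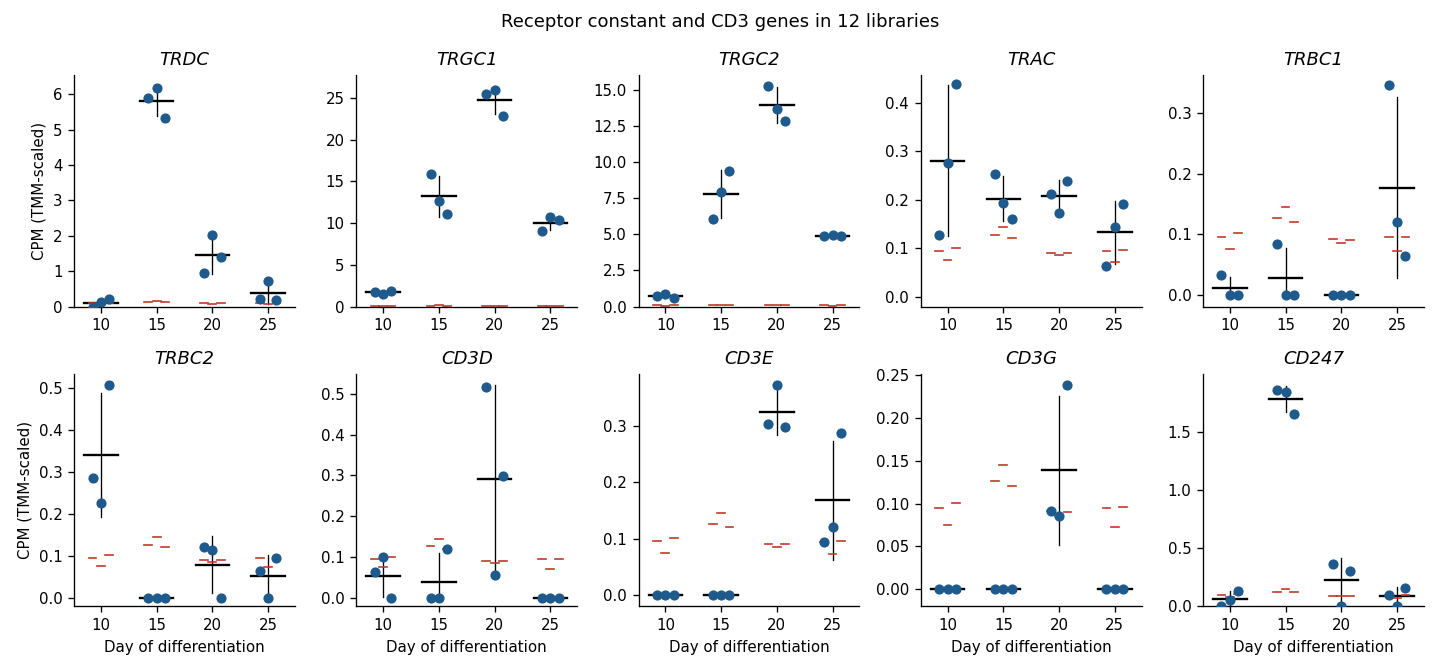
Level of each of the 10 genes (CPM, vertical axes on separate scales) by day of differentiation. Blue points are single libraries, black bars the mean and SD of 3 libraries, and red dashes the value of 3 counts in that library. TRGC1 and TRGC2 are highest at day 20, TRDC and CD247 at day 15, and CD3D and CD3G lie at 0 at day 25.

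Of the 10 members, 5 (TRDC, TRGC1, TRGC2, CD3E and CD247) passed the filter on low counts and were tested. The other 5 (TRAC, TRBC1, TRBC2, CD3D and CD3G) were too low and are described by their counts. In the joint edgeR test all 5 tested members differed among the 4 days, as did 90.5% of the 20183 genes tested, so a difference on some day is the common case in these data. From day 10 to day 15, 4 of the 5 were higher and 0 lower, where 42.4% of all tested genes were called higher and 30.8% lower. From day 15 to day 20, 3 were higher and 2 lower, beside 40.6% and 36.0% of all tested genes. From day 20 to day 25, 0 were higher and 3 lower, beside 24.5% and 25.1%. Against day 10, 4 were higher and 0 lower at day 20 (36.7% and 34.2% of all tested genes), and 4 were higher and 0 lower at day 25 (38.6% and 36.0%). Against day 15, 1 was higher and 4 lower at day 25 (40.2% and 37.8%). The median log2 fold change of the tested members was 3.41, 0.84 and -1.43 over the 3 successive intervals, while that of all tested genes was 0.20, 0.10 and -0.03. Members that passed the filter through the days on which they are high had to differ, so these counts and medians describe them and support nothing. That holds most for CD3E, which passed only through day 20, and CD247, which passed only through day 15.

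The γ chain constant genes lie side by side on the minus strand of chromosome 7 (GRCh38, GENCODE release 29), TRGC1 (ENSG00000211689) at chr7:38257879-38265678 and TRGC2 (ENSG00000227191) at chr7:38239580-38249572. Their first exons, which encode the extracellular immunoglobulin domain, are both 330 bases long and differ at 6 positions (98.2% identity). The first 200 bases are printed 5′ to 3′ on the coding strand, TRGC1 from chr7:38265479-38265678 and TRGC2 from chr7:38249373-38249572, with the 4 differing bases in capitals, because they show how little sequence a short read has for telling the genes apart.
TRGC1: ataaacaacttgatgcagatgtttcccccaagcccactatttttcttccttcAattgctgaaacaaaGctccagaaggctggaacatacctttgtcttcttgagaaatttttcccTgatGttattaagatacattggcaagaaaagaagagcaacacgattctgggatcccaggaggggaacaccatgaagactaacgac
TRGC2: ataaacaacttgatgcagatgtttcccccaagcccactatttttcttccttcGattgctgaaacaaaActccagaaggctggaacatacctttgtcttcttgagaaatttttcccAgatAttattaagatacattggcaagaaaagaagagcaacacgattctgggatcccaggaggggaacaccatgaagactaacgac
Over all exons, 16.1% of the 50-base windows of TRGC1 and 44.7% of those of TRGC2 were found in the other gene. The TARP gene of RefSeq (chr7:38259643-38273636) also overlaps TRGC1 and runs beyond it. The count table has no row under that symbol, so reads from the shared part could fall to TRGC1.

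TRGC1 had 54, 61 and 54 counts in the 3 libraries of day 10. It had 377, 261 and 276 at day 15. At day 20 it reached 839, 905 and 763 counts, and at day 25 it had 287, 444 and 323. The day 20 libraries were the highest, the day 10 libraries the lowest, and no library of any day overlapped those of another day in CPM. The mean level was 1.69 ± 0.148 CPM at day 10, 13.2 ± 2.46 at day 15, 24.8 ± 1.70 at day 20 and 10.0 ± 0.872 at day 25. TRGC1 was 7.85-fold higher at day 15 than at day 10 (log2 fold change 2.97, SE 0.15, edgeR adjusted p = 2.7e-21). It was 1.87-fold higher at day 20 than at day 15 (log2 fold change 0.91, edgeR adjusted p = 5.4e-09) and then fell by 1.30 on the log2 scale to day 25 (SE 0.12, edgeR adjusted p = 8.8e-13).

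TRGC2 had 22, 35 and 17 counts at day 10, and 143, 164 and 233 at day 15. It had 502, 476 and 429 at day 20, and 154, 205 and 153 at day 25. Its order of days was that of TRGC1. The mean level was 0.717 ± 0.153, 7.78 ± 1.67, 13.9 ± 1.25 and 4.90 ± 0.0444 CPM on days 10, 15, 20 and 25. TRGC2 was 10.6-fold higher at day 15 than at day 10 (edgeR adjusted p = 1.3e-18), 1.79-fold higher at day 20 than at day 15 (edgeR adjusted p = 6.7e-06) and 2.84-fold lower at day 25 than at day 20 (edgeR adjusted p = 5.2e-11). Per kilobase of exon, TRGC2 stood at 13.7 ± 1.23 CPM at day 20, above 85.7% of tested genes, and TRGC1 at 9.07 ± 0.624, above 77.8%.

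Days 25 and 15 are the closest pair in level for the γ genes. TRGC1 was lower at day 25 by a log2 change of -0.39 (SE 0.12, edgeR adjusted p = 0.0041) and TRGC2 by one of -0.67 (SE 0.16, edgeR adjusted p = 0.00037). This difference depended on scaling: with library size alone the change was 0.06 for TRGC1 (edgeR adjusted p = 0.64) and -0.21 for TRGC2 (edgeR adjusted p = 0.24). The same scaling took the change from day 15 to day 20 from 0.91 to 1.53 for TRGC1 and from 0.84 to 1.46 for TRGC2. Between days 25 and 15 it moved the median of all tested genes from 0.06 to 0.52, and relative to the median TRGC1 was at -0.45 under both scalings. Without replicate 1 of day 15, or without the filter on low counts, the change of TRGC1 was -0.23 (edgeR adjusted p = 0.10) and -0.18 (edgeR adjusted p = 0.21).

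The split between the γ genes varied among the libraries of days 10 and 15, on which their sum varied less. TRGC1 took 72.5% of the γ constant counts in replicate 1 of day 15 (95% Wilson interval 68.5% to 76.2%), 61.4% in replicate 2 (56.7% to 65.9%) and 54.2% in replicate 3 (49.9% to 58.5%). The intervals of replicates 1 and 3 do not meet. At day 10, with fewer counts, the share ran from 63.5% to 76.1%. On day 20 it ran from 62.6% to 65.5% and on day 25 from 65.1% to 68.4%. The sum of TRGC1 and TRGC2 was 2.41 ± 0.00876 CPM at day 10, 21.0 ± 0.832 at day 15, 38.7 ± 2.70 at day 20 and 14.9 ± 0.914 at day 25. With the genes added together before the test, the log2 fold change was 3.12 from day 10 to 15, 0.88 from 15 to 20, -1.37 from 20 to 25 and -0.49 between days 25 and 15 (edgeR adjusted p = 8e-06 for the last). How the authors assigned reads that match both genes is not given in the sources used here, so each gene's own level is uncertain. The sum does not depend on how reads were split between them. It would still miss reads left out for matching both genes, and it could hold reads from TARP.

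**Figure D2:**
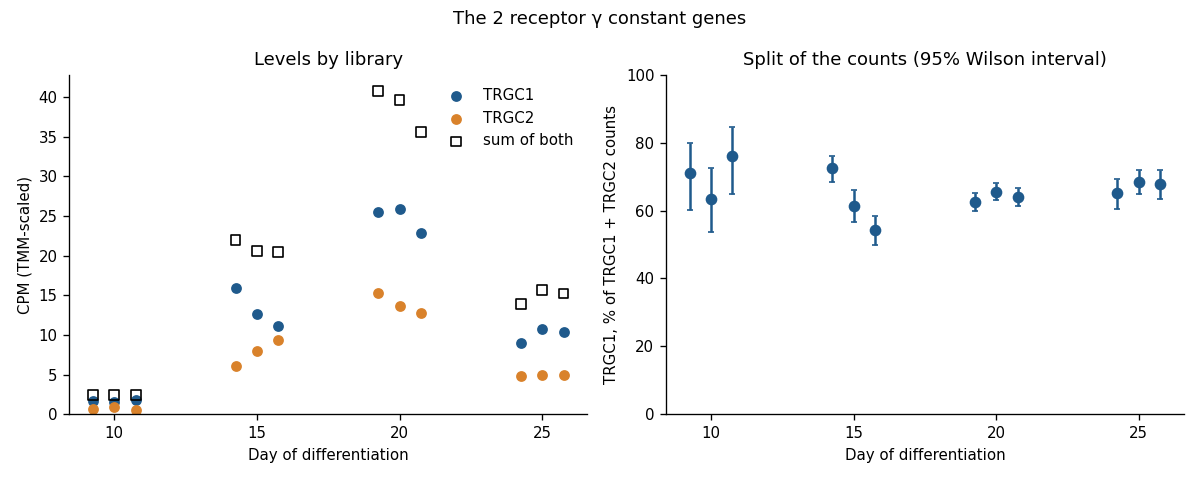
Left, level of TRGC1, TRGC2 and their sum in each library (CPM, linear axis from 0). Right, the share of TRGC1 in the counts of both genes with its 95% Wilson interval. The sums of the 3 day 15 libraries lie close together while their TRGC1 share runs from 72.5% to 54.2%.

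The δ constant gene TRDC (ENSG00000211829) lies on the plus strand at chr14:22462932-22465787, within the α/δ locus. Its first 150 bases (chr14:22462932-22463081, plus strand, 5′ to 3′, all in lower case) are shown because TRDC, unlike the γ and β pairs, shares no 50-base window with another constant gene.
TRDC: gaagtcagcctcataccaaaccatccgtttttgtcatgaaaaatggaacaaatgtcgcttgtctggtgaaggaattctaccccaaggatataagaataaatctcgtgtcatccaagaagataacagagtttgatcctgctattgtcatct
Another gene model, AC244502.1 (ENSG00000251002), runs across TRDC on the opposite strand, and 34.3% of the 50-base windows of TRDC are found in it. Whether reads were counted by strand is not given in the sources used here, so RNA from the pair cannot be told apart in those windows.

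TRDC had 0, 5 and 6 counts in the libraries of day 10. It had 140, 128 and 133 at day 15. It then had 31, 71 and 47 counts at day 20, and 7, 30 and 6 at day 25. Day 15 stood above the other days in all 3 libraries, and the libraries of day 25 overlapped those of day 10. The mean was 0.109 ± 0.102 CPM at day 10, 5.81 ± 0.429 at day 15, 1.46 ± 0.548 at day 20 and 0.379 ± 0.299 at day 25. TRDC was 51.5-fold higher at day 15 than at day 10 (log2 fold change 5.69, SE 0.50, edgeR adjusted p = 4.8e-13). It was 3.96-fold lower at day 20 than at day 15 (log2 fold change -1.99, edgeR adjusted p = 6e-06) and 3.65-fold lower again at day 25 (log2 fold change -1.87, edgeR adjusted p = 0.00033). The sizes moved with single libraries, to 6.30 for the first change without replicate 3 of day 10 and to -2.80 for the last without replicate 2 of day 25. With library size alone, the log2 fold change from day 15 to day 20 was -1.36. No library of day 10 reached the filter's minimum count of 10 for TRDC, which passed through later days. The calls of TRDC against day 10 therefore add nothing to the counts.

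Day 25 remained above day 10 in the fit of all libraries, with a log2 fold change of 1.83 (SE 0.62, edgeR adjusted p = 0.008). That call rested on single libraries, since without replicate 2 of day 25 the value was 0.90 (edgeR adjusted p = 0.26) and without replicate 1 of day 10, the library with 0 counts, 1.30 (edgeR adjusted p = 0.053). Per kilobase of exon, TRDC reached 8.07 ± 0.596 CPM at day 15, above 73.0% of tested genes, and 0.526 ± 0.415 at day 25, above 27.1%. Its share of the δ and γ constant level per kilobase was 35.8% to 41.1% in the day 15 libraries, 5.09% to 11.0% at day 20 and 3.00% to 10.3% at day 25. The γ constant genes were thus called higher, and TRDC lower, at day 20 than at day 15.

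AC244502.1 had 6, 12 and 4 counts at day 10 and 84, 97 and 65 at day 15. Its counts were 113, 73 and 114 at day 20, then 37, 69 and 53 at day 25. It was chosen for its overlap with TRDC. It rose 16.4-fold from day 10 to day 15 (edgeR adjusted p = 1.3e-12), as TRDC did. Between days 15 and 20, where TRDC fell, its log2 fold change was -0.27 (edgeR adjusted p = 0.39). Whether the changes of the genes differ was not tested.

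The CD3 genes are a cluster on chromosome 11, with CD3E (ENSG00000198851) at chr11:118304545-118316175, CD3D (ENSG00000167286) at chr11:118338954-118342744 on the minus strand and CD3G (ENSG00000160654) at chr11:118344344-118355161. In the transcript of each with the longest coding part, CD3D and CD3E share no 50-base window with another gene, and CD3G shares 2.50%. Other exons of these genes were not searched. Over the 3 libraries of a day, the genes together had 6 counts at day 10, 3 at day 15, 76 at day 20 and 17 at day 25.

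CD3E, whose ε chain is part of every CD3 dimer with γ or δ, had 0 counts in all 6 libraries of days 10 and 15. It had 10, 13 and 10 counts at day 20, and 3, 5 and 9 at day 25. All libraries of days 20 and 25 were above those of the earlier days. The mean was 0.325 ± 0.0411 CPM at day 20 and 0.168 ± 0.105 at day 25. Day 20 was at least 10.9-fold higher than the combined floor of the day 10 libraries and at least 7.51-fold higher than that of day 15. Day 25 was at least 5.65-fold higher than the floor of day 10 and at least 3.87-fold higher than that of day 15. All 4 differences were called by edgeR, but CD3E entered the test only because it was high at day 20, so these calls add nothing to the counts. The difference between days 25 and 20 was -0.96 on the log2 scale (SE 0.80, edgeR adjusted p = 0.34) and was not called, although the libraries did not overlap. Per kilobase of exon, CD3E at its highest, day 20, stood at 0.114 ± 0.0145 CPM, above 8.13% of tested genes.

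CD3D, the δ chain of the CD3 complex, had 2, 4 and 0 counts at day 10 and 0, 0 and 3 at day 15. At day 20 it had 17, 2 and 10 counts, and in all 3 libraries of day 25 it had 0. The day 20 libraries ranged from under the floor to 0.517 CPM, and replicate 2 of day 20 overlapped the earlier days. Day 20 was at least 10.1-fold higher than the combined floor of the day 25 libraries. CD3G, the γ chain of the complex, had counts only at day 20, with 3, 3 and 8, and 0 in each of the 9 other libraries. Day 20 was at least 4.67-fold higher than the floor of day 10 and at least 4.83-fold higher than that of day 25. Neither gene passed the filter. Fitted without the filter, CD3D differed between days 25 and 20 (edgeR adjusted p = 0.0029) and CD3G between days 20 and 10 (edgeR adjusted p = 0.04), while for CD3G between days 25 and 20 the edgeR adjusted p was 0.055. The 0 counts at day 25 allow up to 0.0287 CPM for each gene.

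CD247 (ENSG00000198821, chr1:167430640-167518610, minus strand) encodes the ζ chain, which also serves as the signalling partner of CD16 and natural cytotoxicity receptors in natural killer cells. It had 0, 2 and 4 counts at day 10. It had 44, 38 and 41 at day 15, 12, 0 and 10 at day 20, and 3, 0 and 5 at day 25. The day 15 libraries stood apart from all others, and those of the other 3 days overlapped. The mean was 1.78 ± 0.115 CPM at day 15, and 0.0617 ± 0.0683, 0.221 ± 0.194 and 0.0849 ± 0.0805 at days 10, 20 and 25.

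CD247 was 27.9-fold higher at day 15 than at day 10 (log2 fold change 4.80, SE 0.85, edgeR adjusted p = 3.2e-06) and 7.99-fold lower at day 20 than at day 15 (log2 fold change -3.0, edgeR adjusted p = 0.00026). Without replicate 3 of day 10 the first value was 5.81, and without replicate 2 of day 20 the last was -2.40. With library size alone the change from day 15 to day 20 was -2.38, and with limma-voom it was -3.94. Days 20 and 10 differed by 1.80 on the log2 scale (SE 0.96, edgeR adjusted p = 0.089), which was not called. Without replicate 2 of day 20, a library with 0 counts, the value was 2.39 (edgeR adjusted p = 0.019), and without replicate 3 of day 10 it was 2.82 (edgeR adjusted p = 0.04). Days 25 and 20 differed by -1.43 (edgeR adjusted p = 0.2) and days 25 and 10 by 0.38 (edgeR adjusted p = 0.77), neither of them called. CD247 entered the test only because it was high at day 15, so its calls against that day add nothing to the counts. At day 15, when CD247 had its most counts, CD3E and CD3G had 0 counts and CD3D had 3 counts in 1 library. On no day were all 4 of these genes above the floor in every library.

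**Figure D3:**
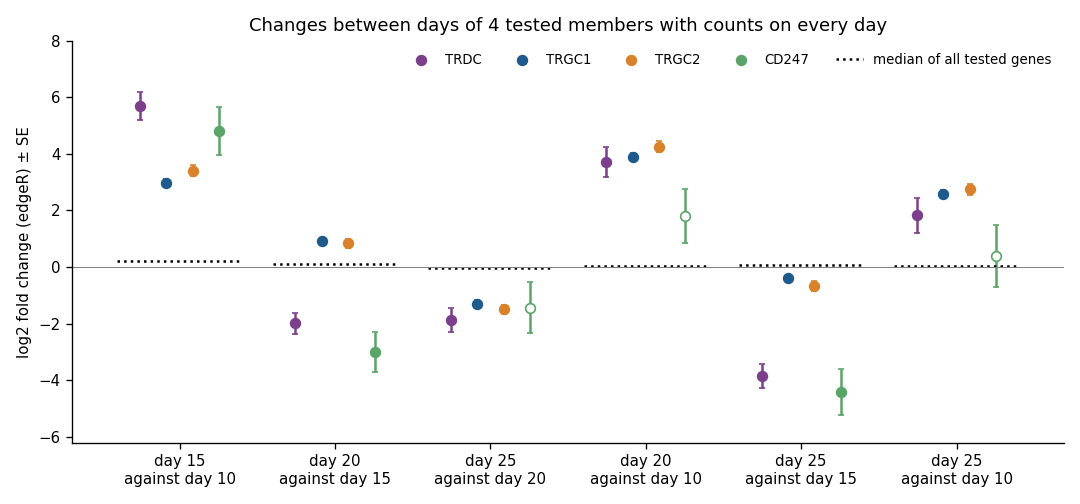
log2 fold change between days from edgeR (vertical axis, bars ± SE) for TRDC, TRGC1, TRGC2 and CD247. Filled points passed an adjusted p under 0.05, open points did not, and dotted lines mark the median of all tested genes. From day 15 to day 20 the γ genes lie above the line at 0 and TRDC and CD247 below it.

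The α and β constant genes belong to the other receptor. TRAC (ENSG00000277734) lies at chr14:22547506-22552154, downstream of TRDC, and TRBC1 (ENSG00000211751) and TRBC2 (ENSG00000211772) at chr7:142791694-142793368 and chr7:142801041-142802748, all on the plus strand. The β genes are near-identical copies, with 98.2% identity and 7 differences over a first exon of 387 bases, and about the same share of their 50-base windows is common to both (23.5% and 23.6%). None of the 3 genes passed the filter on low counts.

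TRAC had 4, 11 and 13 counts at day 10 and 6, 4 and 4 at day 15. Its counts were 7, 6 and 8 at day 20, then 2, 6 and 6 at day 25. The libraries of all days overlapped, with means from 0.133 to 0.281 CPM. Fitted without the filter, TRAC was not called among the 4 days (joint edgeR adjusted p = 0.74). TRBC2 had 9, 9 and 15 counts at day 10 and 0 in each library of day 15. It had 4, 4 and 0 counts at day 20, and 2, 0 and 3 at day 25. Day 10 was at least 7.84-fold higher than the floor of day 15, and without the filter that difference was called (edgeR adjusted p = 0.0012). TRBC1 had 1 count at day 10, 2 at day 15, 0 at day 20, and 11, 5 and 2 at day 25, at least 5.98-fold higher than the floor of day 20 (edgeR adjusted p without the filter 0.03). With TRBC1 and TRBC2 added together, day 15 was lower than day 10 by a log2 fold change of -3.41 (edgeR adjusted p = 0.0071), and days 25 and 10 differed by -0.60 (edgeR adjusted p = 0.49). The sum passed the filter only through libraries of days 10 and 25, where it was high. The call against day 15 therefore adds nothing to the counts.

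Summed over the 10 members, the counts of a day were 328, 1997, 4190 and 1671 on days 10, 15, 20 and 25. The γ constant genes held a mean of 74.5% and 72.7% of them per library at days 10 and 15 and 93.4% and 93.8% at days 20 and 25. TRDC held 20.2% at day 15 and 2.33% at day 25.

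An assembled receptor needs V and J segments as well as a constant gene. The count table holds 226 rows for V, D and J segments, of which 17 were tested. From day 10 to day 15, 7 of the 17 were higher and 0 lower, from day 15 to 20, 1 was higher and 9 lower, and from day 20 to 25, 0 were higher and 2 lower. All tested genes were called higher and lower in 42.4% and 30.8%, 40.6% and 36.0%, and 24.5% and 25.1% over these intervals. The median log2 fold changes of the segments were 0.75, -1.67 and -0.07, beside 0.20, 0.10 and -0.03 for all tested genes. Segments that passed the filter only through a day on which they are high, such as TRBV28 and TRBV6-6 at day 15, had to differ. These counts and medians therefore describe the segments and support nothing. The joining segments of the γ locus were, as a sum, highest at day 20 like the γ constant genes. The 5 TRGJ segments summed to 5 counts at day 10, 79 at day 15, 208 at day 20 and 79 at day 25. Their summed level was 0.0492 ± 0.0149, 1.13 ± 0.375, 2.06 ± 0.172 and 0.773 ± 0.199 CPM on these days. Most of the sum came from TRGJP1 and TRGJP2. TRGJP2 had 0, 31, 100 and 30 counts over the 3 libraries of each day, and day 20 was at least 33.3-fold higher than the floor of day 10.

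As a sum, the γ variable segments had another course. The 14 TRGV segments summed to 4.12 ± 0.724 CPM at day 10, 6.16 ± 0.882 at day 15, 3.54 ± 0.585 at day 20 and 3.60 ± 1.11 at day 25. The summed level at day 20, when the γ constant genes were highest, lay near that of day 10, when they were lowest. Single segments did not all follow the sum. TRGV10 had 0, 20, 40 and 6 counts over the libraries of days 10, 15, 20 and 25. TRGV9 had 2, 23, 32 and 20, and TRGV2 went the other way with 50, 33, 23 and 16. These segments were picked after their values were seen. TRGV5 had the most counts of all segments, with 62, 112, 37 and 37 over the libraries of days 10, 15, 20 and 25. Of the δ locus, TRDV segments had 3, 7, 23 and 5 counts, TRDJ segments 3, 30, 14 and 3, and TRDD segments 0, 0, 6 and 0. The 4 TRDJ segments thus had most counts on day 15, the day of the TRDC peak, and the TRDV segments on day 20. No test was run on these sums.

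Variable segments of the β locus had most counts at day 15, when its constant genes had few. The 60 TRBV segments named for the locus itself summed to 2.14 ± 0.520 CPM at day 10, 8.78 ± 0.598 at day 15, 0.376 ± 0.0672 at day 20 and 0.136 ± 0.0505 at day 25, while TRBC2 had 0 counts and TRBC1 2 counts at day 15. TRBV28 had 18, 189, 20 and 4 counts on these days and rose 15.3-fold from day 10 to day 15 (edgeR adjusted p = 2.9e-07). It entered the test only because it was high at day 15, so this call adds nothing to the counts. TRBV5-4 had 26 and 122 counts at days 10 and 15 and 0 at days 20 and 25, so that day 15 was at least 59.7-fold higher than the floor of day 20. The 8 orphon copies of TRBV segments on chromosome 9 were counted apart and had 17, 42, 54 and 23 counts on these days. The 14 TRBJ segments had 1, 2, 13 and 6 counts. TRAV segments had 5, 27, 31 and 20 counts and TRAJ segments 3, 2, 2 and 4.

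**Figure D4:**
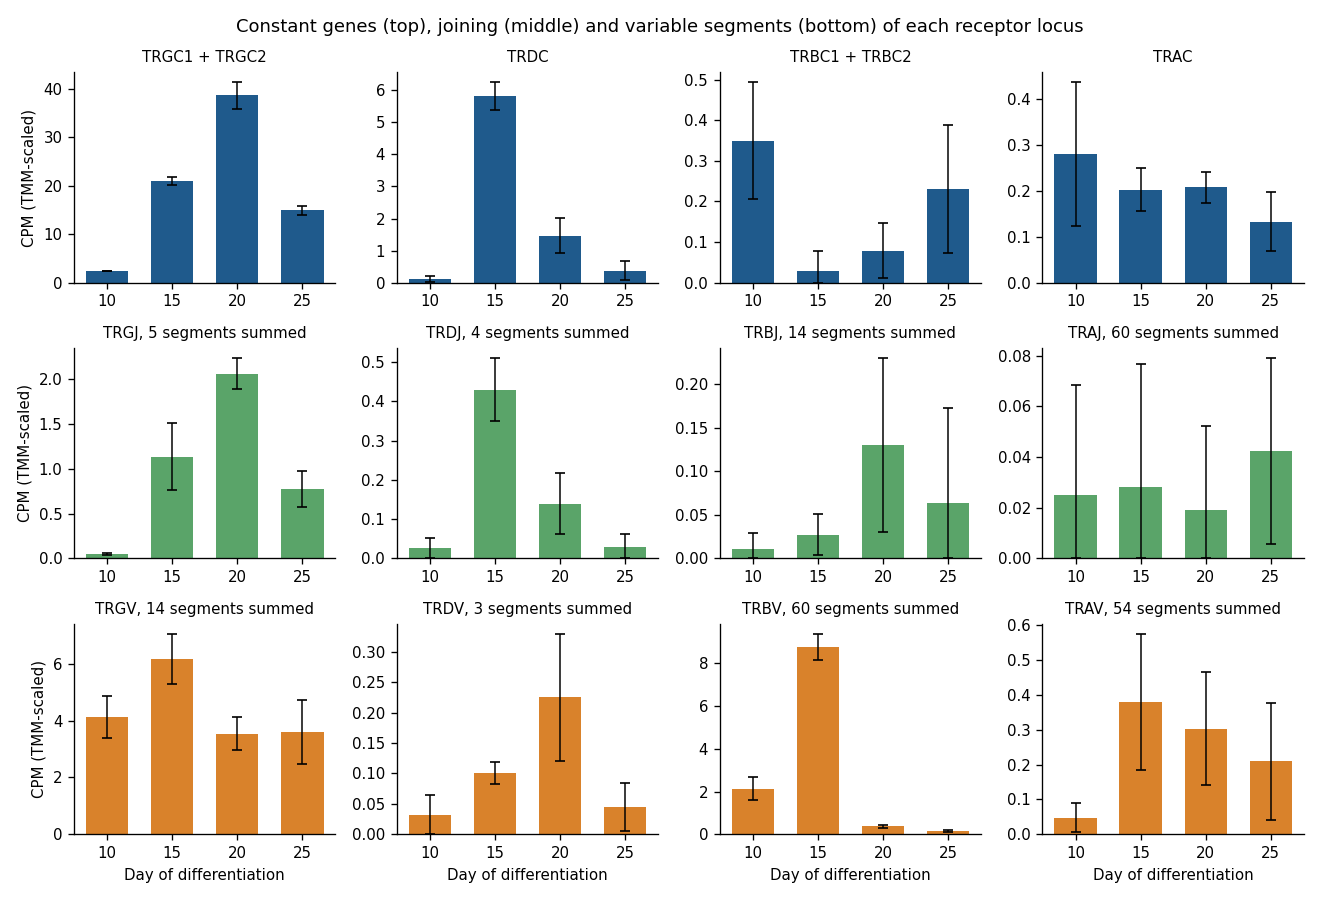
Level of the constant genes (top row), summed joining segments (middle) and summed variable segments (bottom) of the γ, δ, β and α loci by day (CPM, linear axes from 0 on separate scales). Bars are means of 3 libraries and whiskers the SD, drawn down to 0 at most. TRGJ is highest at day 20 like TRGC1 and TRGC2, and TRBV, drawn without its orphon copies, is highest at day 15, when the β constant genes are near 0.

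Genes of receptor assembly and signalling were given by lists. Of 4 assembly genes, RAG1, a subunit of the recombinase, had 4.17 ± 0.818, 5.52 ± 0.240, 3.14 ± 0.994 and 3.11 ± 0.635 CPM on days 10, 15, 20 and 25. Its partner RAG2 had 2, 0, 22 and 11 counts over these days, and DNTT, the terminal transferase that adds bases at the joints, had 2 counts at day 10 and 0 on each later day. PTCRA, the surrogate α chain that pairs with a β chain in early αβ T cells, rose 24.4-fold to 182.6 ± 7.40 CPM at day 15 (edgeR adjusted p = 1.6e-40) and then fell 111-fold to day 20 (edgeR adjusted p = 1.2e-43).

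Of 22 receptor signalling genes 19 were tested. From day 10 to day 15, 10 were higher and 6 lower, from day 15 to 20, 9 were higher and 10 lower, and from day 20 to 25, 6 were higher and 7 lower. These counts stand beside 42.4% higher and 30.8% lower, 40.6% and 36.0%, and 24.5% and 25.1% of all tested genes. The list's median log2 fold change was 0.63, -0.23 and 0.15 over these intervals, beside 0.20, 0.10 and -0.03 for all tested genes. The 5 with the highest mean on any single day were GRAP2, LAT, PTPRC, FYN and LCP2. The adaptors GRAP2 and LAT and the kinase FYN were highest at day 15, at 1811 ± 33.6, 882.2 ± 15.6 and 418.0 ± 6.14 CPM. LAT and GRAP2 are also adaptors of platelets and megakaryocytes. PTPRC, the leukocyte phosphatase CD45, went from 11.4 ± 0.522 CPM at day 10 to 431.8 ± 1.53 at day 25.

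The kinases closest to the receptor differed widely in level. FYN, a Src kinase that can phosphorylate the CD3 and ζ chains, had 188.3 ± 8.44, 418.0 ± 6.14, 24.2 ± 1.64 and 25.3 ± 0.387 CPM on days 10, 15, 20 and 25. LCK, the main kinase of that step in T cells, had 2, 4, 17 and 14 counts over the days and was not tested. ZAP70, which binds the phosphorylated chains, had 2.20 ± 0.156, 1.34 ± 0.223, 3.48 ± 0.566 and 2.11 ± 0.368 CPM, and its relative SYK, used in B cells and myeloid cells, 221.9 to 347.3 CPM on average over the days. THEMIS, a thymocyte protein, had 2 counts in all. LCK, ZAP70, SYK and THEMIS were chosen from the list after their values were seen.

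Of the other ITAM adaptors, TYROBP and FCER1G were far above CD247 and the CD3 genes, and CD79A and CD79B, the B-cell receptor's adaptors, were at most 5.25 CPM. TYROBP, used by myeloid and natural killer receptors, had 59.7 ± 2.22, 85.9 ± 1.53, 264.7 ± 10.7 and 588.6 ± 8.37 CPM on days 10, 15, 20 and 25. FCER1G, the Fc receptor γ chain, had 66.9 ± 1.03, 95.8 ± 3.82, 127.9 ± 2.15 and 225.3 ± 13.3. Of the 4 genes in that list, all tested, 3 were higher and 0 lower at day 15 against day 10, 3 higher and 1 lower at day 20 against day 15, and 2 higher and 2 lower at day 25 against day 20. Of 9 T-cell coreceptor and surface genes 7 were tested, with 3 higher and 2 lower, 1 higher and 4 lower, and 2 higher and 2 lower over the same intervals. Over these intervals 42.4%, 40.6% and 24.5% of all tested genes were called higher and 30.8%, 36.0% and 25.1% lower. CD4, which monocytes and macrophages also carry, reached 407.1 ± 2.40 CPM at day 25. At day 25 CD6 had 453 counts, CD7 233, CD5 88, CD28 79, CD27 19, CD8A 8 and CD2 2, and CD8B had 0. Against day 10, CD5 and CD28 were higher at day 25 (edgeR adjusted p = 0.0049 and 2.4e-06) and CD6 and CD7 lower (edgeR adjusted p = 1.1e-19 and 1.9e-21).

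The summed markers of megakaryocytes, of monocytes and macrophages, and of mast cells, basophils and eosinophils were far above the sum of the members on each day, and they changed over the same days. The 10 megakaryocyte and platelet markers, 0 of them undetected, summed to 7661 to 7920 CPM in the day 10 libraries, 30390 to 31150 at day 15, 512.2 to 529.5 at day 20 and 136.7 to 140.5 at day 25. All 10 were higher at day 15 than at day 10 and all 10 lower at day 20 than at day 15. Of all tested genes, 42.4% were called higher in the first of these intervals and 36.0% lower in the second. TRDC, CD247 and PTCRA also rose and then fell, and a link between these changes was not tested. The 8 monocyte and macrophage markers summed to 150.8 to 160.4, 1350 to 1435, 5469 to 5630 and 6695 to 6982 CPM on days 10, 15, 20 and 25. MSR1 alone of them had 0 counts, at day 10. The 9 mast cell, basophil and eosinophil markers summed to 314.5 to 317.5, 8623 to 9182, 5512 to 5686 and 1326 to 1371 CPM on these days, with none at 0.

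The 14 natural killer and innate lymphoid markers summed to 25.1 to 27.0, 55.8 to 59.1, 201.7 to 214.6 and 185.3 to 191.5 CPM. Of that list 8 genes were tested, with 5 higher and 2 lower at day 15 against day 10, 3 higher and 2 lower at day 20 against day 15, and 0 higher and 3 lower at day 25 against day 20, beside 42.4% and 30.8%, 40.6% and 36.0%, and 24.5% and 25.1% of all tested genes. FCGR3A (CD16), also a macrophage gene, and NKG7 made up most of the sum at day 20, with 103.1 ± 4.18 and 67.7 ± 3.64 CPM. KLRC1 and EOMES had 0 counts at day 25. NCAM1, at 35.4 CPM, and TBX21, with 41 counts, had their highest means on that day. NCR1 had its highest mean at day 10, and KLRD1, KLRF1 and GNLY at day 15. The 6 B-cell markers summed to 1.27 to 1.69, 53.3 to 56.7, 7.23 to 8.88 and 16.8 to 18.3 CPM, most of it CD22, with MS4A1 at 0 counts on 3 of the days. The part of these cells in the levels of the members was not tested.

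**Figure D5:**
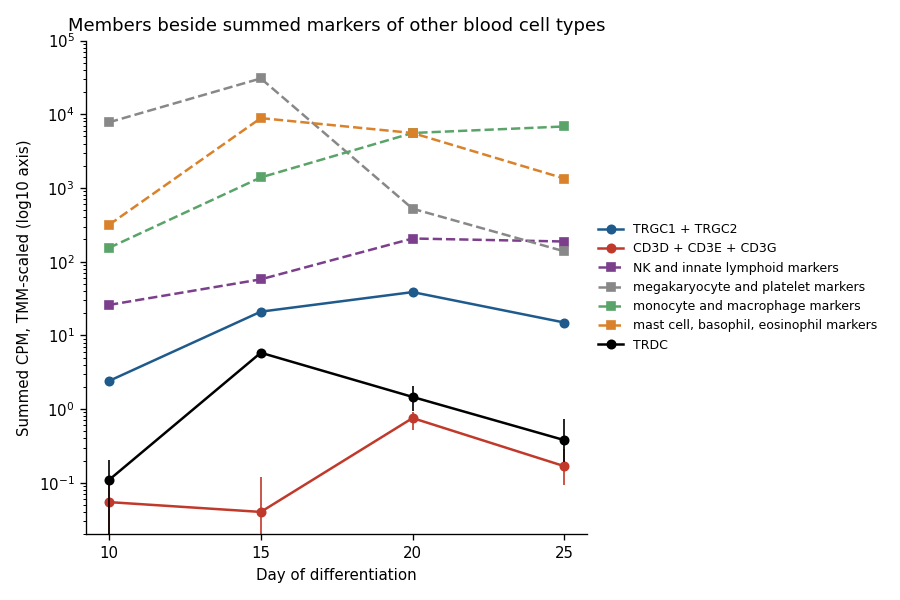
Summed level of the γ constant genes, of CD3D, CD3E and CD3G, and of TRDC (solid lines) beside the summed markers of 4 other groups of blood cells (dashed), on a log10 axis of CPM. Points are means of 3 libraries and vertical lines run from the lowest to the highest library, down to the edge of the axis where the lowest is 0. The marker sums of myeloid cells at day 25 lie above the γ constant genes and the CD3 genes lie lowest.

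Set against its label, day 25 held γ constant RNA with few or no counts of the CD3 genes. The γ constant genes had 1054 and 512 counts over its 3 libraries, TRDC 43, CD3E 17, CD247 8, and CD3D and CD3G 0. The defining CD3 markers of T cells were thus at or near 0 in the libraries labelled mature γδ T cells. All 5 tested members had a lower mean at day 25 than at day 20. The median log2 fold change of all tested genes was -0.03 between these days. Of the 5, 3 passed the test, where 25.1% of all tested genes were called lower. CD3E passed the filter only through day 20, so its lower mean at day 25 was favoured in advance, and the count of 5 supports nothing.

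The genes of most similar pattern were found by Pearson correlation of log2 CPM over the 12 libraries among 14789 genes. The libraries share their days and differ in scaling factor, so these values describe the pattern only. For TRGC1 they were CCL2 (r = 0.995), PRTN3 (0.992), IKZF2 (0.991), SRXN1 (0.991) and CD200R1 (0.990). CCL2, a chemokine for monocytes, had 6.43, 85.1, 158.9 and 55.8 CPM on days 10, 15, 20 and 25, and PRTN3, the neutrophil serine protease, 57.5, 1092, 3366 and 1032. For TRGC2 they were TNFAIP2 (0.993), EBI3 (0.991), CISH (0.991), SLC2A6 (0.990) and again CCL2 (0.990). For TRDC they were H4C8, a histone H4 gene (0.965), BNIP5 (0.960), DCUN1D3 (0.959), CHD9NB (0.956) and N4BP3 (0.956). For CD247 they were SSUH2 (0.952), PPP1R15B (0.930), NPIPB3 (0.930), ELK1 (0.926) and CSAG2 (0.926). No gene of any list given here, of T cells or of other cells, was among these. With 5 genes taken from 14789 for each member, that absence carries no weight.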

How the data were processed

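RNA from 12 libraries was measured by LM-Seq with single reads on an Illumina NovaSeq, per the labels' protocols. The authors deposited raw counts per gene and library, not normalised, per the file headers. Per the submitters' processing notes, reads were placed on GRCh38. Not given in the sources used here are the aligner, the counter, the annotation and the use of strand. Identifiers were matched to symbols for 36366 of 36601 genes, and coordinates, exon lengths (34616 genes) and sequences come from GENCODE release 29.

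The tests were run in edgeR 4.0.16 (R 4.3.3) on the 20183 genes that filterByExpr kept at a minimum count of 10. All 12 libraries entered 1 quasi-likelihood fit with TMM scaling (factors 0.753 to 1.172) and no covariates. All 6 pairs of days and a joint test were adjusted by Benjamini-Hochberg within each, with calls at 0.05. The floor was 3 counts. Where a day had 0 counts, folds use that day's floor and are lower bounds. The script was tested on simulated data. Tables and figures used Python 3.11.15, pandas 2.3.3 and matplotlib 3.10.9.

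The members and lists were chosen with earlier results of these data known. All 10 members are named whatever their values, with up to 5 genes of each list with the highest mean CPM on any day, and for each member reaching 1 CPM the 5 genes with the highest correlation. The segment list took symbols starting TRA, TRB, TRD or TRG followed by V, D or J. The pattern also took TRADD, which was left out by gene type after seeing the data. The alternatives were DESeq2 1.42.0 (its size factors and its test), library size alone, no filter, a stricter filter (1 CPM and 10 counts in 3 libraries), limma-voom (limma 3.58.1), a replicate block, the compared days alone, near-identical copies summed, leaving out each library, and counts halved, the last chosen after seeing the data.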

Additional observations from a re-analysis of the deposited data

How the results depend on the processing

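Of 623 values of tested members under the alternatives, 613 kept their direction and side of the threshold, 5 lost and 2 gained a call, and 3 changed sign. The changes of sign were TRGC1 between days 25 and 15 with library size alone (0.06 on the log2 scale) and CD247 between days 25 and 10, which was not called, with -0.15 without replicate 1 of day 10 and -0.47 without replicate 3 of day 25 (range -0.47 to 1.4 when single libraries were left out). The cause was not tested. The number of members called between days 25 and 20 was 5 without the filter, against 3, with CD3D and TRBC1 added. Between days 25 and 15 it was 3 with library size alone, against 5. Between days 25 and 10 it was 2 in a fit of those days alone, against 4, where 2 members passed the filter. In the joint test it was 9 without the filter, against 5, where 10 members entered.

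Library size alone moved the share of calls that were higher from 57.9% to 39.2% (day 15 against 10), 53.0% to 72.1% (20 against 15), 49.4% to 31.4% (25 against 20) and 51.6% to 66.6% (25 against 15), and the median of all tested genes from 0.20 to -0.32, 0.10 to 0.73, -0.03 to -0.19 and 0.06 to 0.52. With a replicate block, 4 members were called between days 15 and 10 and 5 between days 20 and 15. The deviations of same-numbered libraries from their day means correlated at -0.0164 to 0.0156, so the replicate numbers were not taken to pair the samples. The block moved the calls over all genes from 10023 to 9760 between days 25 and 20, and it changed no number of members called by over 1.5 times. CD3E did not enter the stricter filter or the halved counts. Depth limits CD3D, CD3G, TRAC, TRBC1 and TRBC2, whose counts lay near the floor.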
